A study of Oryza sativa with 12 samples.

Results

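Phenylalanine ammonia-lyase (PAL) is encoded in rice by a small gene family, and 9 identifiers of that family were followed in the deposited expression values. They were taken from a fixed list of identifiers, which was drawn up with earlier results of these data known. The deposited values cover 33780 identifiers, of which 29036 are listed for 93-11 and 28459 for Nip. Of the 9 PAL genes, 6 are listed for both cultivars, 2 (LOC_Os04g43760 and LOC_Os12g33610) for Nip only, and 1 (LOC_Os11g48110) for neither. As their identifiers show, 4 members stand close together on chromosome 2 (LOC_Os02g41630, LOC_Os02g41650, LOC_Os02g41670 and LOC_Os02g41680, called the chromosome 2 cluster here), a pair on chromosome 4, and the others singly on chromosomes 5, 11 and 12. No identifier among those listed is at 0 in all libraries of its cultivar, so an unlisted member may be at 0 in all 6 libraries or may lack a counterpart in that gene set, and these cannot be told apart. No names beyond the identifiers are used, since no table used here pairs them with names or descriptions.

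RNA-seq was performed on aerial parts of 3-week-old seedlings of 93-11, an Indica cultivar, and Nip (Nipponbare), a Japonica cultivar, with 4 groups of 3 biological replicates: 93-11 HS, 93-11 normal, Nip HS and Nip normal. The labels name no transgene or mutant. All seedlings were raised in culture solution with 10 h of light at 800 μmol m-2 s-1 and 14 h of dark, and normal seedlings are those without the HS treatment. HS (heat stress) seedlings were moved to 45 °C for 36 h at over 80% humidity and only 60 to 80 μmol m-2 s-1 of light, so that HS and normal groups differ in heat and light together and these cannot be told apart. The humidity of the normal groups is not given in the sources used here. The paper's methods also give no growth temperature or harvest time for the normal groups, and no light cycle during HS. The groups may therefore differ in these as well.

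PAL removes ammonia from phenylalanine to give trans-cinnamate, the committed entry step of the phenylpropanoid pathway, and the active enzyme is an assembly of several subunits. Cinnamate is the source of hydroxycinnamates, of the monolignols that are polymerised into lignin, and of flavonoids. In plants, PAL transcripts are known for strong responses to wounding, pathogens, light and temperature, and in grasses some PAL enzymes also accept tyrosine.

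Expression was given as FPKM, the number of sequenced fragments scaled for transcript length and for the mapped reads of the library, so that levels of different members can be set side by side. FPKM summed over all genes was 794246 to 810922 in 93-11 HS and 582896 to 617044 in 93-11 normal libraries, and 552167 to 561203 in Nip HS and 785851 to 798491 in Nip normal libraries. The sums thus moved in opposite directions upon HS in the 2 cultivars. Results on the PAL genes that depend on how the libraries are scaled are given with their rescaled values. Summed levels of the marker and pathway lists are given as deposited only. Replicates of a group had a Pearson correlation across genes of at least 0.9905 on the log2 scale. The files hold no counts, so the read depth behind a value is unknown and precision rests on the 3 replicates. Of 5 identifiers taken as green tissue genes, all 5 were lower in 93-11 HS than in 93-11 normal (median log2 fold change -4.76), where 27.5% of all genes tested were, and 4 of 5 were lower in Nip HS than in Nip normal (median -2.01), where 17.8% were, by the call rule given below. The largest changes of that list were those of LOC_Os12g19470 in 93-11 (-5.32) and LOC_Os01g41710 in Nip (-2.78). Their summed level was 1112 to 1150 FPKM in 93-11 HS and 21535 to 23725 FPKM in 93-11 normal libraries, and 7687 to 8172 FPKM in Nip HS and 29134 to 30567 FPKM in Nip normal libraries. The 3 identifiers taken as root genes summed to 0.483 to 1.25 FPKM in 93-11 HS and 7.71 to 8.82 FPKM in 93-11 normal libraries, and to 28.9 to 30.6 FPKM in Nip HS and 7.65 to 9.21 FPKM in Nip normal libraries. One of these, LOC_Os02g44310, was at 0 in all normal libraries of both cultivars, and only LOC_Os02g51110 was tested (log2 fold change -2.52 in 93-11 and 1.67 in Nip). The part of these markers in the PAL results was not tested, and in bulk tissue fewer cells of a type and less RNA per cell cannot be told apart.

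The PAL genes spanned a wide range of levels, and a single member carried most of the signal. LOC_Os02g41630 was the highest in all 4 groups and LOC_Os02g41650 the next, both from the chromosome 2 cluster. The percentile of LOC_Os02g41630 among the identifiers of a library, averaged over the 3 libraries of each group, was 99.55 in 93-11 HS and 99.95 in 93-11 normal. In Nip it was 99.84 in Nip HS and 99.91 in Nip normal. The highest mean among the members was 726 times the lowest in 93-11 HS and 298 times in 93-11 normal. In Nip, with 8 members listed, it was 1832 times the lowest in Nip HS and 235 times in Nip normal. Within each group, the members next to each other in the order of means did not overlap in any library.

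Below the leading pair, the order of the members was not the same in the 4 groups. In 93-11 HS it continued with LOC_Os05g35290, LOC_Os02g41680, LOC_Os02g41670 and LOC_Os04g43800. In 93-11 normal it continued with LOC_Os04g43800, LOC_Os02g41680, LOC_Os05g35290 and LOC_Os02g41670. In Nip HS the order was LOC_Os12g33610, LOC_Os04g43760, LOC_Os02g41680, LOC_Os05g35290, LOC_Os04g43800 and LOC_Os02g41670, against LOC_Os04g43800, LOC_Os02g41680, LOC_Os04g43760, LOC_Os12g33610, LOC_Os05g35290 and LOC_Os02g41670 in Nip normal. LOC_Os04g43800 thus stood directly below the leading pair in both normal groups and last or last but one in both HS groups.

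**Figure D1:**
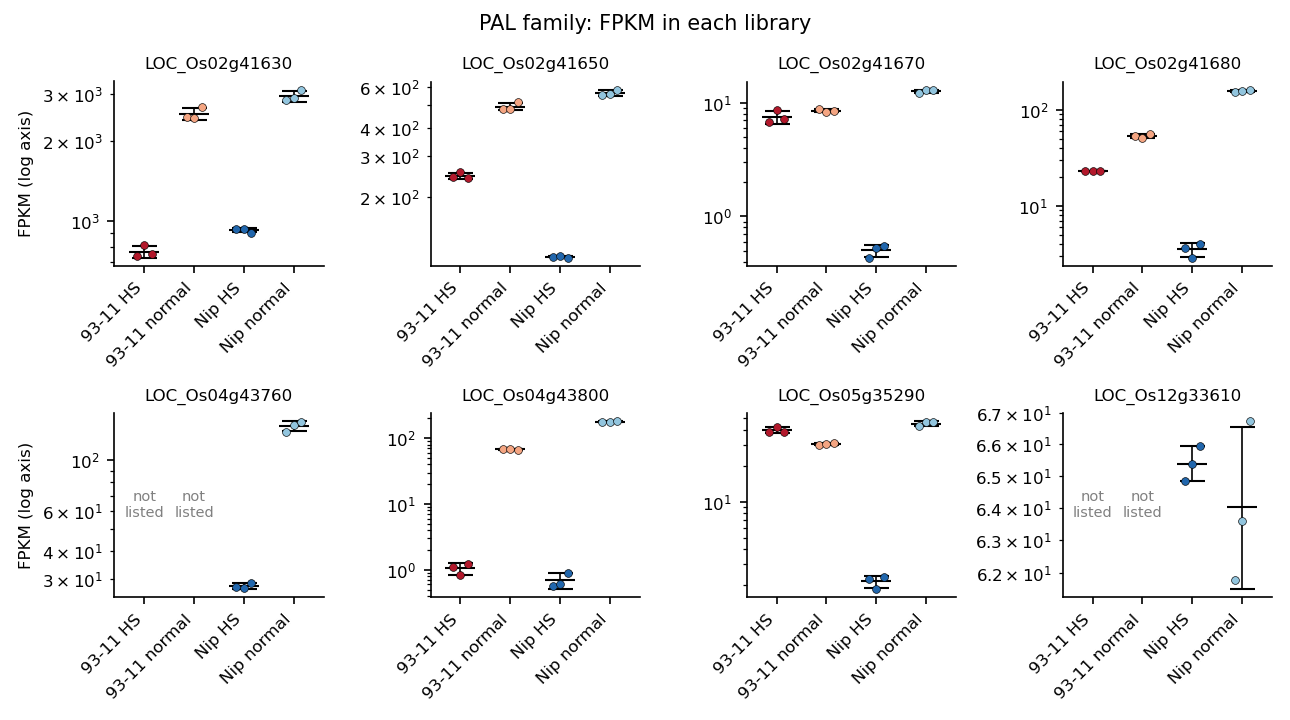
FPKM (log axis, a scale of its own for each gene) of the 8 listed PAL genes in each library of 93-11 HS, 93-11 normal, Nip HS and Nip normal; points are libraries, the long bar is the mean and the short bars are ± 1 SD (n = 3). LOC_Os04g43800 was at 0.820 to 1.24 FPKM in 93-11 HS and 0.573 to 0.907 FPKM in Nip HS, whereas LOC_Os05g35290 stood at 38.4 to 42.5 FPKM in 93-11 HS and 1.85 to 2.33 FPKM in Nip HS.

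Whether HS changed the family was tested in each cultivar alone with limma on log2(FPKM + 1), for genes that reached 1 FPKM in 3 or more libraries. A gene was called where its Benjamini-Hochberg adjusted p, taken over all genes tested, was under 0.01 and its log2 fold change was 1 or more in either direction. Fold changes on this scale understate the change of genes near or below 1 FPKM. Exact two-sided permutation tests of 3 against 3 libraries cannot go below 0.1, which each non-overlapping pair of groups below reached. All listed members passed the filter, 6 of 6 in 93-11 and 8 of 8 in Nip.

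In 93-11, PAL transcripts were lower upon HS for 3 of 6 members and 3 were not called. None was called higher by limma, and 1 was higher at an unadjusted p under 0.05. Of all 20340 genes tested in 93-11, 27.5% were called lower and 22.7% higher. The median log2 fold change of the 6 members was -1.08, and that of all genes tested was 0.03. The members differed widely among themselves, between a log2 fold change of -5.07 and one of 0.37.

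The leading member, LOC_Os02g41630, had 736.6, 809.3 and 751.7 FPKM in 93-11 HS, against 2457, 2446 and 2669 FPKM in 93-11 normal libraries. Every HS library was far below every normal library. The mean was 766 ± 38.4 FPKM in 93-11 HS and 2524 ± 126 FPKM in 93-11 normal (SD, n = 3 each), a 3.30-fold lower level, with a log2 fold change of -1.72 (SE 0.054, limma adjusted p = 8.348e-09). LOC_Os02g41680, also of the cluster, had 23.4, 23.1 and 23.2 FPKM in 93-11 HS, against 53.2, 51.5 and 56.1 FPKM in 93-11 normal libraries. These groups did not overlap either, and the log2 fold change was -1.17 (SE 0.048, limma adjusted p = 4.379e-08). The steepest change was that of LOC_Os04g43800 on chromosome 4, with 1.10, 0.820 and 1.24 FPKM in 93-11 HS, against 67.2, 68.5 and 67.1 FPKM in 93-11 normal libraries. It was thus 64.1-fold lower in 93-11 HS and close to the filter level of 1 FPKM, with a log2 fold change of -5.07 (SE 0.086, limma adjusted p = 2.685e-10), or -5.89 with a pseudocount of 0.1. LOC_Os02g41630 had a log2 fold change of -2.36 after quantile normalization.

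The 3 other members of 93-11 were not called. LOC_Os02g41650 had 244.5, 256.2 and 242.9 FPKM in 93-11 HS, against 482.5, 482.9 and 513.8 FPKM in 93-11 normal libraries. The groups were well apart, but the log2 fold change of -0.99 (SE 0.043, limma adjusted p = 5.703e-08) ended just short of the fold threshold. It passed at -1.53 after quantile normalization, -1.42 with libraries rescaled to a sum of 1000000 and -1.02 with median-ratio size factors, and also without replicate 1 or replicate 2 of 93-11 normal (-1.004 each) or without replicate 2 of 93-11 HS (-1.01), so that in these settings 4 of 6 members were called lower. LOC_Os02g41670 had 6.71, 8.61 and 7.18 FPKM in 93-11 HS, against 8.81, 8.23 and 8.42 FPKM in 93-11 normal libraries. These ranges overlapped, and the log2 fold change was -0.16 with a 95% interval of -0.38 to 0.06 (limma adjusted p = 0.1381). Over the alternative settings it lay between -0.57 and -0.064, always negative and short of the fold threshold. LOC_Os05g35290 had 38.4, 42.5 and 38.8 FPKM in 93-11 HS, against 29.9, 30.7 and 31.0 FPKM in 93-11 normal libraries. It was the only member with every HS library above every normal library, but its log2 fold change of 0.37 (SE 0.054, limma adjusted p = 0.0001682) was below the fold threshold and became -0.046 (adjusted p = 0.4355) with libraries rescaled to a sum of 1000000. By group ranges, 4 of 6 members had HS libraries wholly below normal libraries and 1 wholly above, where 43.2% and 44.5% of all genes tested did so.

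In Nip, 7 of 8 PAL genes were lower upon HS, and none was higher by limma, also at an unadjusted p under 0.05. Of all 20724 genes tested in Nip, 17.8% were called lower and 9.69% higher. The 8 members had a median log2 fold change of -2.76, against -0.04 over all genes tested. The 7 that fell had HS libraries wholly below normal libraries, as had 43.6% of all genes tested.

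In the chromosome 2 cluster, all 4 members fell. LOC_Os02g41630 had 929, 931 and 902 FPKM in Nip HS, against 2846, 2895 and 3108 FPKM in Nip normal libraries. The groups were far apart and the level was 3.20-fold lower in Nip HS, with a log2 fold change of -1.68 (SE 0.037, limma adjusted p = 2.082e-09). This member was the only one to lose its call with the scaling, since quantile normalization left a log2 fold change of -0.59 (adjusted p = 6.704e-07). LOC_Os02g41650 had 110.4, 111.0 and 109.5 FPKM in Nip HS, against 550.7, 559.3 and 582.4 FPKM in Nip normal libraries. The replicates were tight in both groups, the level was 5.11-fold lower in Nip HS, and the log2 fold change was -2.34 (SE 0.030, limma adjusted p = 1.318e-10), or -1.71 after quantile normalization.

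The members of the cluster with lower levels changed more in Nip. LOC_Os02g41670 had 0.434, 0.522 and 0.552 FPKM in Nip HS, against 12.2, 12.8 and 12.8 FPKM in Nip normal libraries. All its Nip HS libraries were under 1 FPKM, so that its fold change depends on the pseudocount, with a log2 fold change of -3.18 (SE 0.080, limma adjusted p = 4.191e-09) at a pseudocount of 1 and -4.40 at 0.1. LOC_Os02g41680 had 3.64, 2.89 and 4.03 FPKM in Nip HS, against 153.4, 159.5 and 161.4 FPKM in Nip normal libraries. It was 44.9-fold lower in Nip HS by the means, with a log2 fold change of -5.15 (SE 0.087, limma adjusted p = 5.192e-10).

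The pair on chromosome 4 also fell in Nip. LOC_Os04g43760 had 27.7, 27.4 and 28.9 FPKM in Nip HS, against 133.3, 142.4 and 147.3 FPKM in Nip normal libraries. The level was 5.03-fold lower in Nip HS, with a log2 fold change of -2.29 (SE 0.045, limma adjusted p = 1.092e-09). Its partner LOC_Os04g43800 had 0.573, 0.606 and 0.907 FPKM in Nip HS, against 173.9, 175.6 and 179.6 FPKM in Nip normal libraries. It was under 1 FPKM in every Nip HS library although it stood next below the leading pair in Nip normal, with a log2 fold change of -6.71 (SE 0.077, limma adjusted p = 8.143e-11), or -7.82 with a pseudocount of 0.1. By the ratio of the means it was 253.6-fold lower.

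The single members on chromosomes 5 and 12 behaved differently from each other. LOC_Os05g35290 had 2.25, 1.85 and 2.33 FPKM in Nip HS, against 43.1, 46.4 and 46.4 FPKM in Nip normal libraries. It was 21.1-fold lower in Nip HS, with a log2 fold change of -3.88 (SE 0.075, limma adjusted p = 1.013e-09). LOC_Os12g33610 had 64.8, 65.4 and 65.9 FPKM in Nip HS, against 61.8, 63.6 and 66.7 FPKM in Nip normal libraries. The ranges overlapped, and the log2 fold change was 0.03 with a 95% interval of -0.06 to 0.12 (limma adjusted p = 0.4736). With libraries rescaled to a sum of 1000000 it was 0.53. LOC_Os12g33610 was the lone member of the 8 not called in Nip under the scaling as deposited.

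**Figure D2:**
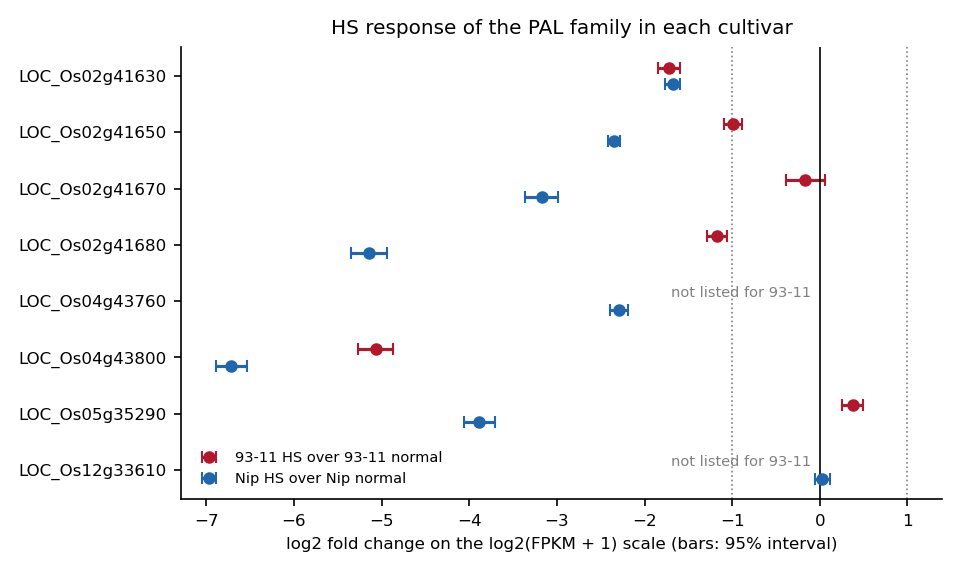
Log2 fold change upon HS (x axis, log2(FPKM + 1) scale) of each listed PAL gene (y axis), in 93-11 (HS over normal, upper point) and in Nip (HS over normal, lower point); bars are 95% intervals from limma and dotted lines mark a log2 fold change of 1 in size. LOC_Os02g41630 had nearly the same value in both cultivars (-1.72 and -1.68), and the 5 other shared members had the lower value in Nip.

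Whether the cultivars responded differently was tested for the 6 shared members as the interaction of cultivar and treatment in a single fit of the 12 libraries, over the 19583 identifiers that are listed for both and pass the filter. The difference is the log2 fold change of 93-11 minus that of Nip. For 5 of 6 members it was positive at an adjusted p under 0.01, that is, the HS level relative to normal was higher in 93-11 than in Nip. Of all genes tested, 37.0% had such a positive difference, 33.7% a negative one and 70.6% either. The members' median difference was 2.33, against 0.03 for all genes tested.

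The difference was largest for LOC_Os05g35290, at 4.26 (SE 0.091, limma adjusted p = 5.652e-13), where 93-11 HS was above 93-11 normal and Nip HS far below Nip normal. LOC_Os02g41680 followed with 3.97 (SE 0.11, limma adjusted p = 3.415e-12) and LOC_Os02g41670 with 3.01 (SE 0.12, limma adjusted p = 1.199e-10). LOC_Os04g43800 fell steeply in both cultivars and still differed by 1.65 (SE 0.12, limma adjusted p = 4.383e-08). Its HS libraries overlapped near 1 FPKM, at 0.820 to 1.24 FPKM in 93-11 and 0.573 to 0.907 FPKM in Nip. Its normal levels were apart, at means of 67.6 FPKM in 93-11 and 176 FPKM in Nip. The difference for LOC_Os04g43800 thus mostly follows the normal levels, where gene models and mapping cannot be told apart from cultivar. LOC_Os02g41650 differed by 1.35 (SE 0.050, limma adjusted p = 5.931e-11). The leading member, LOC_Os02g41630, had a difference of -0.04 with a 95% interval of -0.19 to 0.10 (limma adjusted p = 0.5761).

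The size of these differences, though not their direction, moved with the scaling of the libraries. With libraries rescaled to a sum of 1000000, the log2 fold change of the genes tested shifted by a median of -0.41 per gene in 93-11 and 0.48 in Nip, and the difference by a median of -0.89. Under that scaling LOC_Os05g35290 differed by 3.56, LOC_Os02g41680 by 3.19, LOC_Os02g41670 by 2.63, LOC_Os04g43800 by 0.999 and LOC_Os02g41650 by 0.41, all still positive at an adjusted p under 0.01. After quantile normalization LOC_Os02g41650 differed by only 0.28 (adjusted p = 1.324e-05). LOC_Os02g41630 was not called as deposited but was lower in 93-11 at -0.99 (adjusted p = 1.433e-09) with the rescaled sums and -1.79 (adjusted p = 1.021e-11) after quantile normalization. Median-ratio size factors left it at -0.09 (adjusted p = 0.1728). With a pseudocount of 0.1, the difference for LOC_Os02g41670 was 4.22.

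**Figure D3:**
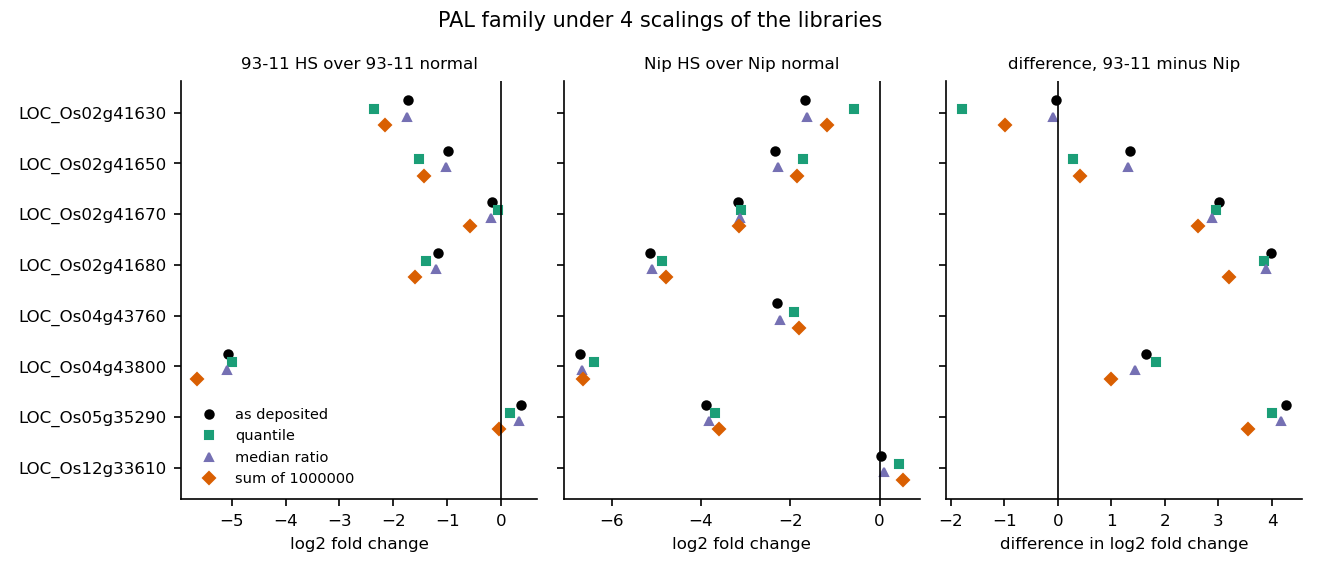
Log2 fold change upon HS of each PAL gene in 93-11 (left), in Nip (middle) and the difference, 93-11 minus Nip (right), with the libraries as deposited, quantile normalized, scaled by median ratios or rescaled to a sum of 1000000. The 5 members below LOC_Os02g41630 with a difference stay to the right of 0 under every scaling, while LOC_Os02g41630 ranges from -1.79 to -0.04.

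The makeup of the PAL transcripts was described next, as shares of the summed FPKM of the 6 shared members, since a share within the family does not move when a whole library is multiplied by a factor. LOC_Os02g41630 made up 70.5 ± 0.42% in 93-11 HS and 79.4 ± 0.31% in 93-11 normal, but 88.7 ± 0.19% in Nip HS and 75.5 ± 0.42% in Nip normal (SD, n = 3 each). Its share was thus lower upon HS in 93-11 and higher upon HS in Nip, with no overlap of the libraries in either cultivar. LOC_Os02g41650 took the opposite course, at 22.8 ± 0.41% in 93-11 HS and 15.5 ± 0.15% in 93-11 normal, and 10.6 ± 0.099% in Nip HS and 14.4 ± 0.18% in Nip normal. LOC_Os05g35290 had 3.68 ± 0.047% in 93-11 HS and 0.962 ± 0.034% in 93-11 normal, and 0.207 ± 0.027% in Nip HS and 1.16 ± 0.040% in Nip normal. In 93-11 HS it therefore held a larger share than LOC_Os02g41680, which had 2.14 ± 0.10% there and 1.69 ± 0.026% in 93-11 normal. In Nip, LOC_Os02g41680 held 0.340 ± 0.060% in HS and 4.05 ± 0.10% in normal libraries.

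The share of LOC_Os04g43800 shrank in both cultivars, to 0.0979 ± 0.023% in 93-11 HS, against 2.13 ± 0.11% in 93-11 normal, and to 0.0672 ± 0.019% in Nip HS, against 4.52 ± 0.11% in Nip normal. LOC_Os02g41670 had 0.689 ± 0.060% in 93-11 HS and 0.267 ± 0.016% in 93-11 normal, and 0.0485 ± 0.0064% in Nip HS and 0.322 ± 0.010% in Nip normal. The chromosome 2 cluster as a whole held most of the signal throughout, 96.2 ± 0.024% in 93-11 HS and 96.9 ± 0.15% in 93-11 normal, and 99.7 ± 0.042% in Nip HS and 94.3 ± 0.13% in Nip normal. Over the 8 members listed for Nip, the cluster held less, 91.5 ± 0.26% in Nip HS and 89.6 ± 0.17% in Nip normal. On that basis LOC_Os12g33610 held 5.78 ± 0.12% in Nip HS and 1.56 ± 0.0092% in Nip normal. Members of a gene cluster can share sequence, and how reads with several matching positions were treated in the deposited FPKM is not given in the sources used here, so the split between cluster members is less certain than their sum.

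**Figure D4:**
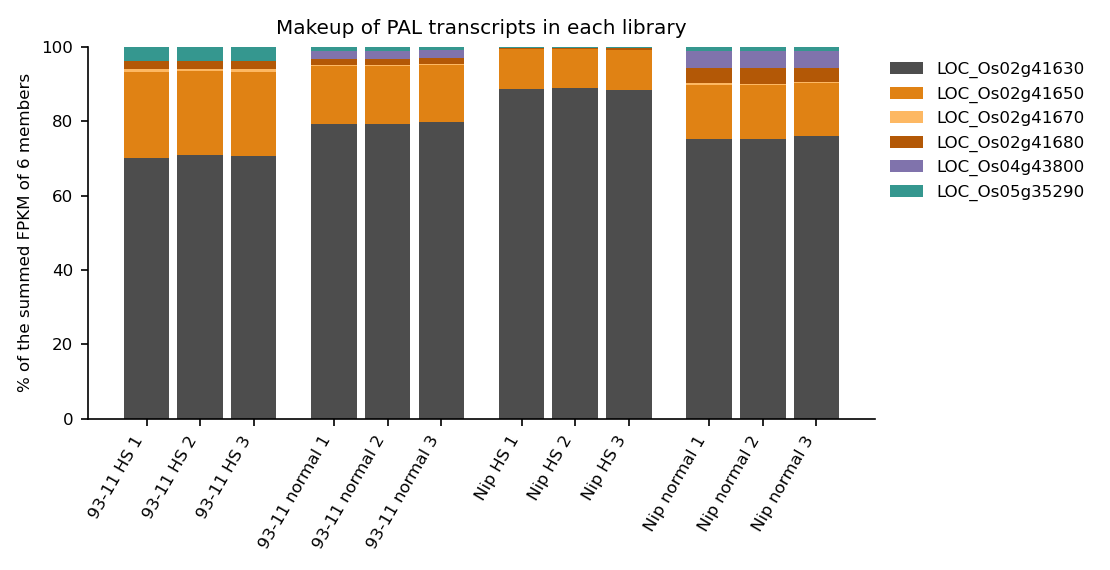
Share (%) of each shared PAL gene in the summed FPKM of the 6 members, 1 bar per library, for 93-11 HS, 93-11 normal, Nip HS and Nip normal. LOC_Os02g41630 fills 88.5 to 88.8% of the Nip HS bars and 70.1 to 71.0% of the 93-11 HS bars, and the share of LOC_Os05g35290 is widest in 93-11 HS.

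Relative to LOC_Os02g41630 in the same library, LOC_Os02g41650 stood at 32.4 ± 0.77% in 93-11 HS and 19.5 ± 0.26% in 93-11 normal, and at 11.98 ± 0.14% in Nip HS and 19.1 ± 0.34% in Nip normal (SD, n = 3 each). The cultivars were close under normal conditions, where the ranges overlapped, and apart upon HS. The ratio of LOC_Os05g35290 to LOC_Os02g41630 was also farther apart upon HS, with 5.21 ± 0.046% in 93-11 HS and 1.21 ± 0.047% in 93-11 normal, and 0.233 ± 0.031% in Nip HS and 1.54 ± 0.059% in Nip normal. These ratios were chosen after the values had been seen and were not tested.

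Summed over the 6 shared members, PAL expression was 1085 ± 48.3 FPKM in 93-11 HS and 3178 ± 146 FPKM in 93-11 normal, and 1038 ± 16.1 FPKM in Nip HS and 3906 ± 163 FPKM in Nip normal (SD, n = 3 each). The sum was 2.93-fold lower in 93-11 HS and 3.76-fold lower in Nip HS than in the normal libraries of the same cultivar. As a part of the summed FPKM of all genes, the 6 members made up 0.135% in 93-11 HS and 0.533% in 93-11 normal, 3.95-fold lower upon HS. In Nip they made up 0.187% in HS and 0.494% in normal libraries, 2.65-fold lower upon HS. Which cultivar had the larger fall of the sum therefore differed between these 2 scalings, and the sum was lower upon HS under both; other scalings of the sum were not run. Because LOC_Os02g41630 dominates the sum, the sum says little about the other members.

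Levels were also compared between cultivars, in the fit of all 12 libraries and as 93-11 over Nip. The paper's methods name alignment of each cultivar's reads to its own genome, so gene models and mapping cannot be told apart from cultivar. Across all genes the median log2 fold change was -0.31 for 93-11 normal over Nip normal and -0.29 for 93-11 HS over Nip HS. Under normal conditions, 2 of 6 members were called lower in 93-11, where 13.4% of all genes tested were. LOC_Os02g41680 averaged 53.6 ± 2.34 FPKM in 93-11 normal and 158 ± 4.19 FPKM in Nip normal (SD, n = 3 each), a log2 fold change of -1.54 (SE 0.075, limma adjusted p = 1.225e-09). LOC_Os04g43800 averaged 67.6 ± 0.806 FPKM in 93-11 normal and 176 ± 2.95 FPKM in Nip normal, a log2 fold change of -1.37 (SE 0.084, limma adjusted p = 1.145e-08), which ended short of the fold threshold at -0.94 with libraries rescaled to a sum of 1000000. All 6 members had 93-11 normal libraries wholly below Nip normal libraries, as had 56.3% of all genes tested. For LOC_Os02g41630 (-0.22) and LOC_Os02g41650 (-0.19) this direction turned round under each of the 3 other scalings, to between 0.11 and 0.61 for LOC_Os02g41630 and between 0.14 and 0.24 for LOC_Os02g41650. For LOC_Os05g35290 the log2 fold change was -0.55 and for LOC_Os02g41670 -0.52, neither past the fold threshold.

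Upon HS, 4 of 6 members were called higher in 93-11 than in Nip, where 16.5% of all genes tested were. LOC_Os05g35290 averaged 39.9 ± 2.29 FPKM in 93-11 HS and 2.14 ± 0.255 FPKM in Nip HS (SD, n = 3 each), a log2 fold change of 3.70 (SE 0.064, limma adjusted p = 2.004e-14). LOC_Os02g41670 averaged 7.50 ± 0.992 FPKM in 93-11 HS and 0.503 ± 0.0611 FPKM in Nip HS, a log2 fold change of 2.49 (SE 0.084, limma adjusted p = 1.084e-11), or 3.65 with a pseudocount of 0.1. LOC_Os02g41680 averaged 23.2 ± 0.119 FPKM in 93-11 HS and 3.52 ± 0.578 FPKM in Nip HS, a log2 fold change of 2.43 (SE 0.075, limma adjusted p = 4.433e-12). These 3 low or middle members thus had clearly higher levels in heated 93-11 than in heated Nip, although none of them was higher in 93-11 under normal conditions. LOC_Os02g41650 averaged 248 ± 7.24 FPKM in 93-11 HS and 110.3 ± 0.792 FPKM in Nip HS, with a log2 fold change of 1.16 (SE 0.035, limma adjusted p = 3.62e-12), but it was not called at 0.52 after quantile normalization or at 0.66 with rescaled sums.

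The 2 members that were not called between the HS groups differed little in these values. LOC_Os02g41630 was lower in 93-11 HS at a log2 fold change of -0.27 (limma adjusted p = 0.0001557), which was 0.019 with median-ratio size factors and -1.18, a call, after quantile normalization. LOC_Os04g43800 had overlapping ranges of 0.820 to 1.24 FPKM in 93-11 HS and 0.573 to 0.907 FPKM in Nip HS, with a log2 fold change of 0.28. By ranges, 4 of 6 members had 93-11 HS libraries wholly above and 1 wholly below Nip HS libraries, where 34.0% and 52.5% of all genes tested did so.

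Later steps of the phenylpropanoid pathway were described with a list of 23 identifiers, 16 taken from general knowledge as the lignin branch (hydroxylases, ligases, transferases, methyltransferases and reductases that turn cinnamate into monolignols) and 7 as the flavonoid branch. The files do not annotate these identifiers, so no enzyme is assigned to any of them. In 93-11, 19 were tested, of which 9 were called lower and 2 higher upon HS, where 27.5% and 22.7% of all genes tested were. In Nip, 17 were tested, of which 14 were called lower and none higher by limma, where 17.8% and 9.69% of all genes tested were, and all 17 had a negative log2 fold change. The median log2 fold change was -0.98 in 93-11 and -1.89 in Nip, against 0.03 and -0.04 over all genes tested in those cultivars. With rescaled sums, 10 of 17 were called lower in Nip and 11 of 19 in 93-11. After quantile normalization these counts were 11 and 10, and under both scalings 0 were called higher in either cultivar. Median-ratio size factors gave 14 lower in Nip, and 10 lower and 1 higher in 93-11. The counts of the cultivars were thus closer with rescaled sums and quantile normalization than as deposited.

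As deposited, the lignin branch list was lower as a whole in Nip and mixed in 93-11. Calls of this list alone were not counted under other scalings. In 93-11, 6 of 15 tested identifiers were called lower and 2 higher, where 27.5% and 22.7% of all genes tested were. In Nip 10 of 13 were called lower, where 17.8% of all genes tested were. The 2 that were higher in 93-11 HS were LOC_Os05g25640, with 446 FPKM in 93-11 HS and 191 FPKM in 93-11 normal (log2 fold change 1.22), and LOC_Os05g41440, with 119 FPKM in 93-11 HS and 58.5 FPKM in 93-11 normal (log2 fold change 1.01). Neither held its call with rescaled sums (0.79 and 0.59) or after quantile normalization (0.73 and 0.77), and with median-ratio size factors only LOC_Os05g25640 did (1.19). The summed FPKM of the listed lignin branch identifiers was 1518 to 1601 in 93-11 HS and 1704 to 1863 in 93-11 normal libraries. In Nip it was 644 to 664 in HS and 2366 to 2505 in normal libraries. These sums are as deposited and were not rescaled. The FPKM of all genes summed higher in 93-11 HS than in 93-11 normal libraries and lower in Nip HS than in Nip normal libraries. The strongest change of the list was that of LOC_Os08g06100 in 93-11 (-3.79, limma adjusted p = 5.635e-11) and of LOC_Os02g08100 in Nip (-4.33, limma adjusted p = 5.309e-11).

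The flavonoid branch list was lower upon HS in both cultivars. Called lower were 3 of 4 tested identifiers in 93-11 and 4 of 4 in Nip, beside 27.5% and 17.8% of all genes tested. LOC_Os11g32650 had the strongest change of that list in both, at -3.05 in 93-11 (limma adjusted p = 1.641e-10) and -4.53 in Nip (limma adjusted p = 1.099e-11). For the difference between cultivars, 14 of 18 tested pathway identifiers were positive, 2 were negative and 2 were not called, with a median of 1.51. The positive direction was thus shared by 5 of 6 PAL genes and by most of the list, beside the 37.0% of all genes tested. With the rescaled sums, 11 of the 18 were positive and 6 negative, beside 3345 and 11650 of all 19583 genes tested. After quantile normalization 12 were positive and 4 negative, beside 6561 and 6620 of all genes tested.

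**Figure D5:**
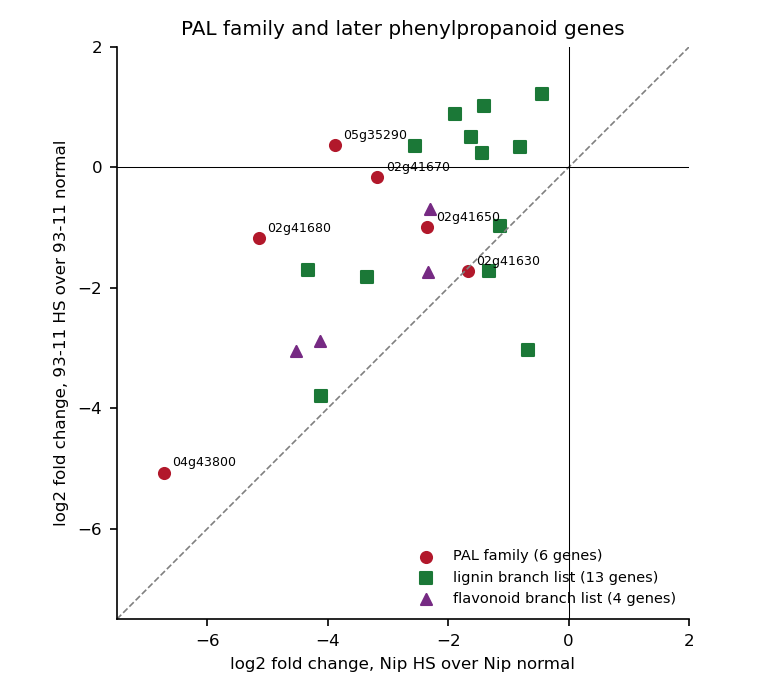
Log2 fold change upon HS in 93-11 (y axis) against that in Nip (x axis) for the 6 shared PAL genes (circles), 13 lignin branch identifiers (squares) and 4 flavonoid branch identifiers (triangles); the dashed line marks equal values in both cultivars. All points lie left of 0, most lie above the dashed line, and LOC_Os02g41630 lies nearly on it.

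Patterns among the members and of other genes were described by Pearson's r of log2(FPKM + 1) over the 12 libraries, which form 4 groups, so that r mainly follows the group means. Among the members, r was 0.984 between LOC_Os02g41630 and LOC_Os04g43800 and 0.984 between LOC_Os02g41670 and LOC_Os05g35290, but 0.467 between LOC_Os02g41630 and LOC_Os05g35290. Within the chromosome 2 cluster, r was 0.974 between LOC_Os02g41650 and LOC_Os02g41680 but 0.607 between LOC_Os02g41630 and LOC_Os02g41670. Over 19296 other genes, those most like LOC_Os02g41630 were LOC_Os07g46460 (r = 0.999), LOC_Os07g47700 (r = 0.998) and LOC_Os10g35950 (r = 0.998). LOC_Os07g46460, for example, averaged 33.4 FPKM in 93-11 HS and 325.9 FPKM in 93-11 normal, and 51.6 FPKM in Nip HS and 433.5 FPKM in Nip normal. Pearson's r does not measure the size of a change, and these 3 genes fell more steeply than LOC_Os02g41630. LOC_Os10g35950 averaged 2.80 FPKM in 93-11 HS and 133.5 FPKM in 93-11 normal, and 6.89 FPKM in Nip HS and 252.6 FPKM in Nip normal.

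The same was done for the 3 shared members that, as deposited, were called in Nip only. Of these, LOC_Os02g41650 was just short of the fold threshold in 93-11 and was called lower there under each of the other scalings. Those most like LOC_Os02g41650 were LOC_Os02g50490 (r = 0.999), LOC_Os12g36880 (r = 0.997) and LOC_Os01g22010 (r = 0.996). LOC_Os02g41670 was most like LOC_Os01g50420 (r = 0.996), LOC_Os06g11450 (r = 0.993) and LOC_Os06g49660 (r = 0.993). LOC_Os05g35290 was most like LOC_Os03g61500 (r = 0.997), LOC_Os08g44590 (r = 0.997) and LOC_Os03g60080 (r = 0.996). LOC_Os03g61500 averaged 33.4 FPKM in 93-11 HS and 25.2 FPKM in 93-11 normal, and 0.623 FPKM in Nip HS and 39.6 FPKM in Nip normal, the pattern of a level held in heated 93-11 and nearly lost in heated Nip that LOC_Os05g35290 also had.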

How the data were processed

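Total RNA was poly(A) selected and sequenced as stranded libraries by the authors. The deposited values are FPKM, 1 per gene and library; the submitters' processing notes list HISAT2 2.0.4, StringTie 1.3.4d and DESeq2, the paper's methods name STAR (reads of each cultivar against its own genome, keeping reads with several matching positions), featureCounts and DESeq2, and the tool that gave the FPKM values is not given in the sources used here. Values were taken as deposited, from all 12 files, and 0 columns were left unassigned.

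Tests used limma 3.58.1 (R 4.3.3) on log2(FPKM + 1) with its trend option, for genes that reached 1 FPKM in 3 or more libraries of the fit. Each cultivar was fitted alone for HS against normal, and all 12 libraries together, over identifiers listed for both, for the interaction and for cultivar contrasts. Calls needed a Benjamini-Hochberg adjusted p under 0.01 and, except for the interaction, a log2 fold change of 1 or more in either direction. Family sums, shares and correlations were computed with Python 3.11.15 and are descriptions. Data were simulated with 200 genes changed by a log2 fold change of 2. The fits recovered 197 in 93-11 (1 wrong call among 20340 genes) and 198 in Nip (0 wrong among 20724). For the interaction they recovered 200 (1 wrong among 19583). The simulation drew Gaussian noise on the log2 scale, changed only genes at higher mean levels and added no shift between libraries. In the data, 10214 of 20340 genes were called in 93-11. The simulation thus checks the code and does not give the error rate of the calls made here.

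Members and lists (lignin branch, flavonoid branch, green tissue, root) were chosen with earlier results of these data known. Named are all members, the identifier of each list with the largest change in each cultivar, and the 3 identifiers most like LOC_Os02g41630 and like each shared member called in 1 cultivar only. The 2 lignin branch identifiers that rose in 93-11, LOC_Os02g44310 and the neighbours of the PAL genes were chosen after their values were seen. Alternatives were a pseudocount of 0.1, no filter, quantile normalization, rescaled sums, median-ratio size factors, a replicate block, each replicate left out and, for HS against normal, a single fit of all 12 libraries. The scalings of the pathway counts were added after the data were seen. Hi-C and ATAC-seq were not analysed here. Sequences and coordinates of the members were not used here.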

Additional observations from a re-analysis of the deposited data

Results flagged for a closer look

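The HS responses of 5 PAL genes differed between the cultivars by the interaction test (limma, adjusted p under 0.01), given as the log2 fold change in 93-11 minus that in Nip: 4.26 for LOC_Os05g35290, 3.97 for LOC_Os02g41680, 3.01 for LOC_Os02g41670, 1.65 for LOC_Os04g43800 and 1.35 for LOC_Os02g41650. In 3 of 3 93-11 HS libraries LOC_Os05g35290 was above every 93-11 normal library, as were 44.5% of all genes tested, and in 3 of 3 Nip HS libraries it was below every Nip normal library, as were 43.6%. Its 93-11 log2 fold change of 0.37 became -0.046 with libraries rescaled to a sum of 1000000. For LOC_Os04g43800 the HS libraries of the 2 cultivars overlapped near 1 FPKM, so that its difference mostly follows the normal levels. Since 70.6% of all genes tested differed between the cultivars in either direction, a difference in HS response was common in these libraries.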

How the results depend on the processing

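Of 504 log2 fold changes of members recomputed under the alternatives, 483 kept their direction and their side of the threshold. Among the rest, 8 reversed, 9 gained a call and 4 lost it. Many alternatives could not move an estimate, namely the replicate block, no filter, the single fit and leaving out a library outside the contrast. The 483 thus overstate how stable the values are. Most of the changes arose under the 3 other scalings, which gave only 96 of the 504 values. In the difference between cultivars, the 5 positive members stayed positive and called under every alternative, between 0.28 and 1.38 for LOC_Os02g41650, 2.63 and 4.22 for LOC_Os02g41670, 3.19 and 4.26 for LOC_Os02g41680, 0.999 and 1.93 for LOC_Os04g43800, and 3.56 and 4.73 for LOC_Os05g35290.

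With libraries rescaled to a sum of 1000000, LOC_Os05g35290 in 93-11 reversed to -0.046, the genes called higher in Nip numbered 4871 (2008 as deposited), the difference between cultivars was positive for 3345 and negative for 11650 genes (7242 and 6590 as deposited), and 1 PAL gene was negative in it. For 93-11 normal against Nip normal, LOC_Os02g41630 reversed to 0.61 (quantile normalization), 0.21 (rescaled sums) and 0.11 (median ratios), and LOC_Os02g41650 to 0.24, 0.24 and 0.14. The genes called lower numbered 1680, 1681 and 1640 in these settings (2622 as deposited). With rescaled sums 2609 were called higher (1398 as deposited) and 1 PAL gene lower. For 93-11 HS against Nip HS, LOC_Os02g41630 reversed to 0.019 with median ratios, quantile normalization called 1 PAL gene lower, and rescaled sums called 8118 genes lower (5323 as deposited). Quantile normalization also called 1 PAL gene negative in the difference between cultivars. The cause of these changes beyond the scaling itself was not tested.

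A replicate block left all 52 values on their side of the threshold. It called 10226 genes in 93-11 (10214 without it), 5705 in Nip (5693) and 13696 for the difference (13832). Such a block cannot move a log2 fold change here, since every group holds the same replicate numbers. Deviations of same-numbered libraries correlated at -0.06 to 0.053, and 1 of 3 HS libraries in 93-11 and 3 of 3 in Nip correlated best with their own number. With 3 libraries per group, these correlations cannot decide whether a shared number marks a shared batch. Without counts, read depth and counting error at the low values of LOC_Os02g41670 and LOC_Os04g43800 in HS libraries are unknown, and 3 replicates limit every p.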

Other observations

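Genes with identifiers within 100 of the PAL genes were looked at after the data were seen. Of 11 such neighbours of the chromosome 2 cluster, 5 were tested in each cultivar, of which 3 were called lower upon HS in 93-11 and 4 in Nip, where 27.5% and 17.8% of all genes tested were. None was called higher by limma, and LOC_Os02g41550 was higher at an unadjusted p under 0.05 in 93-11 (log2 fold change 0.81). LOC_Os02g41590 had the strongest change, at -3.32 in 93-11 (limma adjusted p = 1.575e-09) and -2.84 in Nip (limma adjusted p = 9.079e-10). Of 11 neighbours of the chromosome 4 pair, 9 were tested in each cultivar, of which 2 were called lower and 1 higher in each. Beside these stand 27.5% called lower and 22.7% higher of all genes tested in 93-11, and 17.8% and 9.69% in Nip, so that the neighbours' counts lie near or below the shares over all genes. Their strongest changes were 4.58 for LOC_Os04g43660 in 93-11 (limma adjusted p = 6.52e-10) and -2.70 for LOC_Os04g43680 in Nip (limma adjusted p = 2.244e-09). LOC_Os04g43770, which lies between the 2 PAL identifiers of chromosome 4 by its number, had a log2 fold change of -2.91 in 93-11 and -0.06 in Nip, where it was not called. It averaged 12.9 FPKM in 93-11 HS and 103 FPKM in 93-11 normal, but 3.03 FPKM in Nip HS and 3.22 FPKM in Nip normal. Its normal levels were thus far apart, and gene models and mapping cannot be told apart from cultivar.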
